A study of Rattus norvegicus with 8 samples.

Results

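The cytochrome P450 genes outside family 1 were taken as all non-control probes whose gene name on the array starts with Cyp, a family number and a subfamily letter, leaving out the names that start with Cyp1a or Cyp1b. This gave 73 of 26269 gene names and 90 of 30367 non-control probes, and 15 of the genes had several probes. Hypothalamic RNA came from Wistar rat dams that were nursing litters on postpartum day 7. One group of 4 dams served as the control, and 4 dams of the same strain and stage had been exposed to TCDD. TCDD is the reference dioxin, which binds the aryl hydrocarbon receptor (AhR), and the sources used here do not give its dose, route or timing. Each RNA was hybridised to 1 Agilent array in 1 colour, and the arrays within a group are called replicates 1 to 4.

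All 4 control arrays shared 1 slide and all 4 TCDD arrays another, so slide and exposure cannot be told apart in any comparison. A value below is the log2 signal of a probe minus the 75th percentile of its array, so that 0 marks that percentile. Values serve to compare arrays for 1 probe, not 1 gene with another, because probes differ in brightness for equal RNA. A probe was called measured when the scanner software flagged it as well above background on all 4 control arrays, all 4 TCDD arrays or both. On a single array 61.7% to 66.7% of all probes carried that flag. All 14 hypothalamic neuron marker genes looked at, from oxytocin and vasopressin to orexin, were measured.

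P450 enzymes are haem proteins that insert an oxygen atom into small fatty molecules. Those in the endoplasmic reticulum draw electrons from P450 oxidoreductase (Por), and those in mitochondria from ferredoxin. Family 1 holds the classical targets of AhR, whereas the families described here make or clear steroids, oxysterols, bile acids, vitamin D, retinoic acid, fatty acid mediators, drugs and other foreign compounds. In brain, Cyp46a1 turns cholesterol into 24S-hydroxycholesterol, the form in which neurons dispose of it, and Cyp7b1 hydroxylates oxysterols and neurosteroids.

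The capture probes are oligonucleotides of 60 bases, and some of them decide what a P450 value means. The probes named Cyp2d1 and Cyp2d5 share 55 of their 60 bases, so both report on the same RNA, and neither gene can be told from the other. The last 30 bases of each, 5′ to 3′, are shown because the only bases that differ at that end, in capitals, are 3 in the Cyp2d1 probe and 5 in the Cyp2d5 probe.
Cyp2d1: ctgagccacgtttaataaaccagtcttTTG
Cyp2d5: gagccacgtttaataaaccagtcttGAGGC
The probes of Cyp4a8, a fatty acid hydroxylase, are shown because 1 was measured on all 8 arrays and the other was at background on all 8. The first sequence is the last 30 bases of the probe at background and the second those of the measured probe. Another probe without a gene name shares 28 bases with the measured one, and it too was not measured.
Cyp4a8 A_64_P040989: gacagctccaacagcatgctgtctgccatt
Cyp4a8 A_64_P040994: tcaaaatgtaaataagaaatactcaagtta

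Most P450 probes gave no signal above background in hypothalamus. Of the 90 probes, 33 were measured, in 28 genes, which is 36.7% of the probes against a background of 62.9% over all probes of the array. Of those, 28 were well above background on all 8 arrays and 5 on all arrays of 1 group only. A further 48 probes were at background on every array, and for 38 of the 73 genes no probe rose above background on any array. A single array had between 31 and 38 P450 probes well above background.

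**Figure D1:**
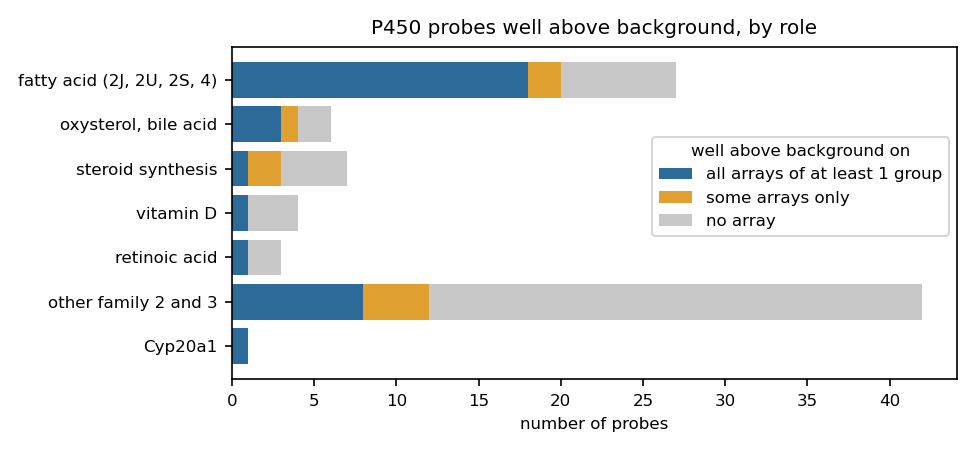
Number of P450 probes (horizontal axis) in each role, split into those measured in at least 1 group (blue), those well above background on some arrays only (orange) and those at background on every array (grey). The fatty acid families had 18 of 27 probes measured, and the other enzymes of families 2 and 3 had 8 of 42.

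The roles differed in how many members were measured. The fatty acid and eicosanoid hydroxylases and epoxygenases (families 2J, 2U, 2S and 4) had 18 of 27 probes measured, in 14 of 21 genes. The other enzymes of families 2 and 3, which mostly clear drugs and hormones in liver, had 8 of 42 probes measured, in 7 of 33 genes, and 30 of the 42 were at background throughout. These included Cyp2e1, the ethanol-inducible enzyme, and all probes of the subfamilies 2a and 2f. Of the 6 oxysterol and bile acid genes, Cyp46a1, Cyp27a1 and Cyp7b1 were measured. Cyp7a1, the rate-limiting enzyme of bile acid synthesis in liver, and Cyp8b1 were at background throughout.

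Of the 6 steroid genes with a probe, Cyp21a1, the steroid 21-hydroxylase, was measured. Cyp11a1, which makes pregnenolone from cholesterol, Cyp17a1 and Cyp11b2, the aldosterone synthase, were at background on all 8 arrays. Cyp11b1, which makes corticosterone, rose above background on 1 control array and 3 TCDD arrays, and 1 of the Cyp11b3 probes on 1 control array. Of the vitamin D genes, the activating 1-alpha-hydroxylase Cyp27b1 was measured, and the clearing enzyme Cyp24a1 and the 25-hydroxylase Cyp2r1 were not. Cyp26b1 was the only measured member of the 3 retinoic acid hydroxylases. No probe carries the name Cyp19a1 (aromatase) or Cyp2b1, so these were not analysed here.

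Apart from the measured probes, 9 probes of 8 genes were well above background on some arrays. Cyp11b1, Cyp11b3 and 1 of the Cyp4v3 probes, at 3 control and 2 TCDD arrays, were among them. Cyp2j10, an epoxygenase family member, was so on 3 control arrays and 1 TCDD array. Cyp39a1, the 24-hydroxycholesterol 7-alpha-hydroxylase, was so on 1 TCDD array only. The same held for 1 probe of Cyp2b12, both probes of Cyp2b15, which share 25 bases, and 1 probe of Cyp2c79.

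No P450 probe outside family 1 differed between TCDD and control dams at an adjusted p under 0.05. The count was 0 of 33 by limma with Benjamini-Hochberg adjustment over all 19099 probes tested, against a background of 0.0157%, or 3 probes, all higher in TCDD. At an unadjusted p under 0.05 the count was 0 of 33 as well, where 10.8% of all tested probes passed, 6.85% higher and 3.92% lower in TCDD. Values of the 4 control and 4 TCDD arrays overlapped for all 33 probes, and did not overlap for 7.08% of all tested probes. Adjusted p-values ran from 0.547 to 0.999, and the smallest unadjusted limma p was 0.0818, for Cyp4f4. Labels do not say how the dams relate to each other. The p-values set the difference between the groups against the spread within them, for these 8 samples only. They cannot separate exposure from slide.

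Of the 33 log2 fold changes, TCDD minus control, 10 were above 0 (Cyp2d1 and Cyp2d5, probes of nearly 1 sequence, among them) and 23 below, and 45.5% of all tested probes were above 0. Their median was -0.06, against -0.01 over all tested probes. The median absolute log2 fold change was 0.10 for the P450 probes and 0.08 over all. The 5 probes measured through 1 group only were each higher in that group, a direction that the filter favours. Among the 28 probes well above background on all 8 arrays, 7 log2 fold changes were above 0 and 21 below. Of all probes that passed that stricter filter, 45.8% were above 0. The intervals say how large a difference between the groups could have gone unseen given the spread of the arrays. That difference includes any between the slides, so the intervals do not bound a change due to TCDD alone. For 29 of the 33 probes the 95% confidence interval lay within a 2-fold change either way, and for 25 within 1.5-fold. The 4 exceptions to the wider limit were Cyp2d1, Cyp2d5, Cyp4b1 and Cyp26b1, which were also the 4 probes with a pooled SD within groups above 0.5 on the log2 scale, a spread seen for 3.66% of all tested probes. The median pooled SD was 0.187 for the P450 probes and 0.122 over all tested probes.

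**Figure D2:**
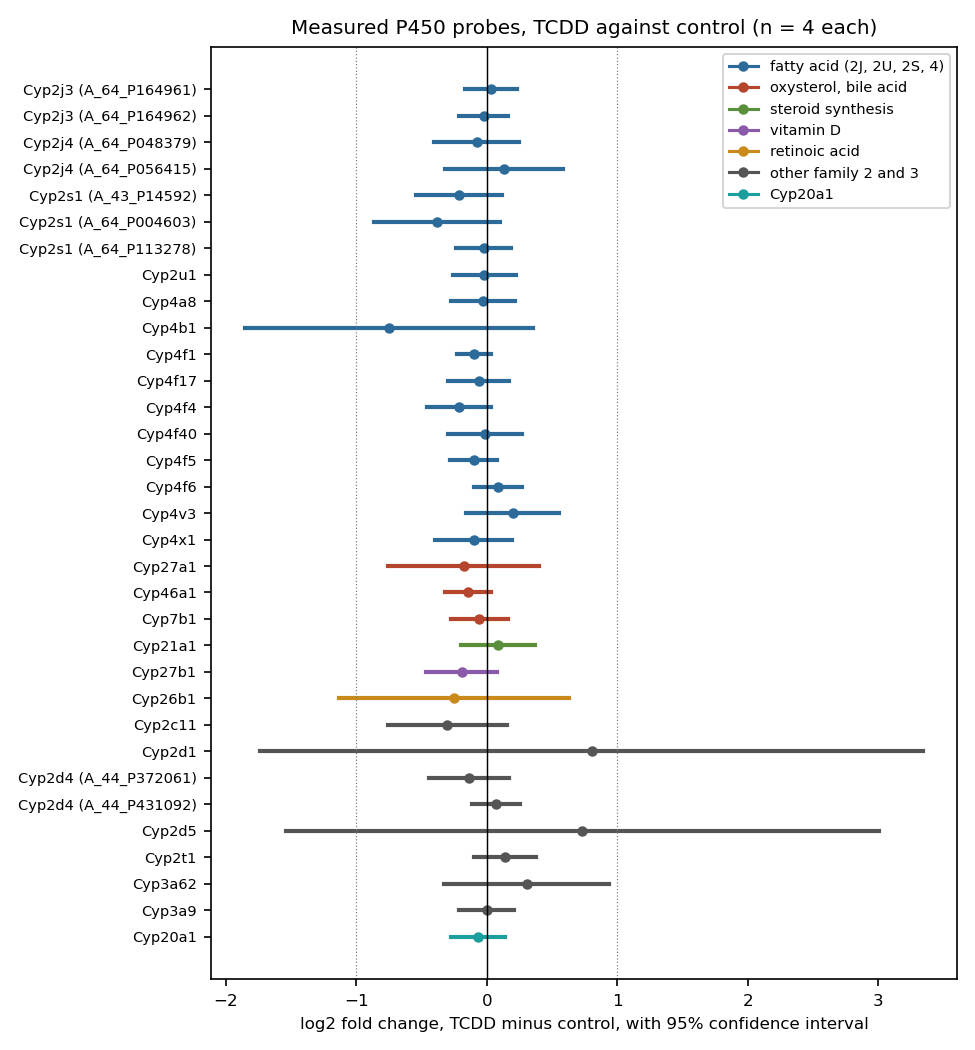
Log2 fold change, TCDD minus control (horizontal axis), of the 33 measured P450 probes with its 95% confidence interval from limma, coloured by role. The dotted lines mark a 2-fold change, and every interval includes 0, with those of Cyp2d1, Cyp2d5, Cyp4b1 and Cyp26b1 reaching past a dotted line.

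The 3 measured oxysterol and bile acid enzymes all had log2 fold changes below 0, and none passed the test. Cyp46a1, the neuronal cholesterol 24-hydroxylase (probe at chr6:132731264-132731323, plus strand, rn4), read 0.10, 0.10, 0.07 and -0.09 in the control dams and -0.05, -0.25, 0.04 and -0.14 in the TCDD dams. Control replicate 4 fell among the TCDD values, and the groups overlapped. Its mean was 0.04 ± 0.09 in control and -0.10 ± 0.12 in TCDD (SD, n = 4 each), and the log2 fold change was -0.14 (SE 0.08, 95% interval -0.32 to 0.03, limma adjusted p = 0.573).

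Cyp7b1 (chr2:103103702-103103761, minus strand, rn4) read 0.21, 0.20, 0.03 and 0.43 in control and 0.11, 0.33, 0.08 and 0.12 in TCDD. The highest array of each group, control replicate 4 and TCDD replicate 2, stood above all others, and the rest overlapped. Its log2 fold change was -0.06 (SE 0.10, limma adjusted p = 0.879), and 0.01 without control replicate 4.

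Cyp27a1, the mitochondrial sterol 27-hydroxylase (chr9:74067772-74067831, plus strand, rn4), read -3.65, -3.69, -3.67 and -2.80 in control and -3.76, -3.09, -4.00 and -3.66 in TCDD. Control replicate 4 and TCDD replicate 2 were again the highest. TCDD minus control was -0.18 on the log2 scale (SE 0.25, limma adjusted p = 0.855), and 0.04 without control replicate 4. Of the 4 tanycyte marker genes on the array, 3 were measured and none was at background throughout. Their summed signals were also highest on control replicate 4, at 25.8, and TCDD replicate 2, at 17.8. The other arrays had 9.80 to 15.6 times the 75th percentile. Crym gave most of the sum on both arrays, at 4.51 and 3.83 on the log2 scale. Vim was highest on both too, at 1.52 and 1.77, as was Rax, which was not measured. Dio2 was highest on TCDD replicate 2, at -3.84, but at -4.22 on control replicate 4 it lay below control replicates 1 and 3. Summed pituitary markers, 3 of 7 genes measured and 2 (Fshb and Pou1f1) at background throughout, were highest on the same arrays and on TCDD replicate 4, at 50.9 to 71.4, against 1.94 to 6.96 on the others. Cga gave most of the sum on these 3 arrays. Prl and Gh1, not among the measured genes, did not follow it, at -7.55 and -7.97 on control replicate 4. They read 2.09 and -2.54 on TCDD replicate 2, and 2.57 and -1.63 on TCDD replicate 4. Control replicate 4 and TCDD replicate 2 were the top arrays for 6 of the 13 marker lists, which besides tanycytes and pituitary were choroid plexus, meningeal fibroblasts, astrocytes and liver. These lists are not independent, since Ttr is on both the choroid plexus and the liver list and gave most of both sums on these arrays. Astrocyte sums differed little, at 96.2 and 93.8 against 79.5 to 92.3 on the other arrays. Choroid plexus markers, 4 of 6 genes measured and Clic6 at background throughout, summed to 4.45 on control replicate 4 and 6.94 on TCDD replicate 2. The other arrays had 1.94 to 3.18. That pattern was of Ttr, at 1.77 and 2.49 on the log2 scale, and the other measured markers did not share it. Folr1 was highest on control replicate 1, Kcne2 on TCDD replicate 3 and Otx2 on control replicate 2. Otx2 was lowest on control replicate 4, at -2.14. The part of any of these cell types in the Cyp27a1 values was not tested. In RNA from whole tissue, fewer cells of a type and less RNA per cell cannot be told apart.

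**Figure D3:**
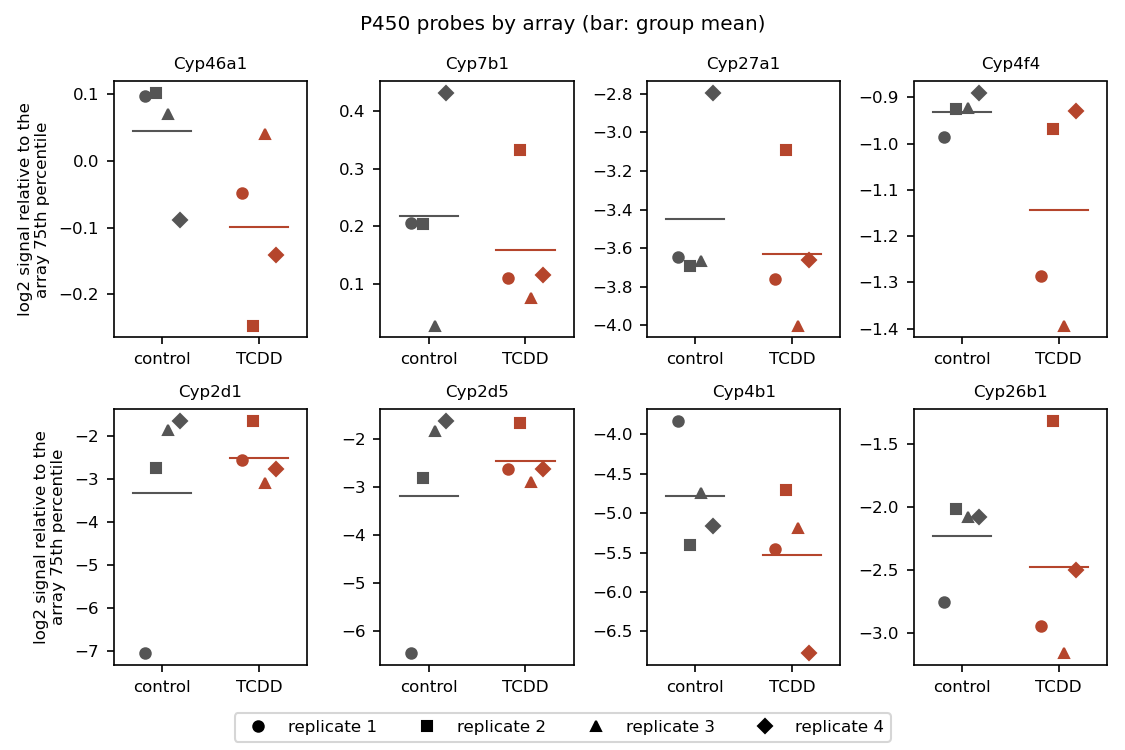
Log2 signal relative to the 75th percentile of the array (vertical axis, scaled separately for each gene) for 8 P450 probes in control (grey) and TCDD (red) dams. Symbols give the replicate number and horizontal bars the group means, and in all 8 panels the groups overlap.

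A promoter was read for 24 of the 28 measured genes from RefSeq (build GRCr8), taking the 250 bases before the gene start. The letters GCGTG, the core to which AhR and its partner Arnt bind, were searched on both strands. They occurred in 10 of the 24 promoters (41.7%), in 6 of 40 promoters of the other P450 genes (15.0%) and in 25.9% of all 33469 promoters of the table. Some of the 40 are several starts of 1 gene, such as Cyp3a73, and both starts of Cyp2r1, whose windows overlap, are among the 6. A match is a description of the letters and not of binding. These shares were not tested against each other, and the base composition of the sets was not compared. The Cyp46a1 promoter, at chr6:133011740-133011989 on the plus strand, is shown because it has 3 matches, in capitals, that start 160, 129 and 64 bases before the gene start.
Cyp46a1: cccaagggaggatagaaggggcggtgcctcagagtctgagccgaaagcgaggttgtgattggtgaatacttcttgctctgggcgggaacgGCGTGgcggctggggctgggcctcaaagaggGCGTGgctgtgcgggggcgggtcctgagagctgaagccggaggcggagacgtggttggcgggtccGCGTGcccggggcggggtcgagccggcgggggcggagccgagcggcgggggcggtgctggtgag
The same window of Cyp2s1 held 0 matches.

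Cyp21a1, which makes the precursors of corticosterone and aldosterone (chr20:4128459-4128518, plus strand, rn4), read -3.24, -3.11, -2.62 and -3.09 in control and -2.95, -2.98, -2.91 and -2.89 in TCDD. The TCDD arrays lay close together, inside the control range. Its log2 fold change was 0.09 (SE 0.12, limma adjusted p = 0.858). Cyp27b1, the vitamin D 1-alpha-hydroxylase, read -4.94, -4.46, -4.44 and -4.50 in control and -4.80, -4.65, -4.76 and -4.92 in TCDD. Control replicate 1 stood below every TCDD array and the other 3 control arrays above them. Its log2 fold change was -0.19 (SE 0.12, limma adjusted p = 0.637), and -0.31 without control replicate 1, with a limma adjusted p of 0.292.

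Cyp26b1, which degrades retinoic acid in brain (chr4:118735314-118735373, minus strand, rn4), varied more between dams of 1 group than between the groups. It read -2.75, -2.01, -2.07 and -2.07 in control and -2.94, -1.31, -3.16 and -2.50 in TCDD. TCDD replicate 2 was the highest of all 8 arrays, while the other 3 TCDD arrays lay below control replicates 2 to 4. As a log2 fold change the group difference was -0.25 (SE 0.38, limma adjusted p = 0.869). Without TCDD replicate 2 it was -0.64, with an unadjusted limma p of 0.0235 and an adjusted p of 0.397.

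TCDD replicate 2 was the highest array for 8 of the 16 measured probes in the list of other enzymes and carriers of these pathways, as it was for 6 of the 33 P450 probes and 12.6% of all tested probes. Aldh1a2, Crabp2 and Ch25h, chosen from the 8 after their values were seen, are given here. The retinoic acid synthesis enzyme Aldh1a1 and the carrier Crabp1 were not among the 8, with Aldh1a1 highest on control replicate 3, at 2.64, and Crabp1 at -2.18 on TCDD replicate 2. Aldh1a2, which makes retinoic acid, read -5.85, -3.09, -2.71 and -2.67 in control and -4.83, -1.50, -4.94 and -4.72 in TCDD. Crabp2, a retinoic acid carrier, read -0.80 in control replicate 1 and 0.91 to 1.38 in the other control arrays, and -0.77, 2.31, -0.21 and -0.29 in TCDD. Ch25h, the cholesterol 25-hydroxylase, read -2.21, -1.39, -1.43 and -1.26 in control and -2.46, -0.67, -2.15 and -2.23 in TCDD. All 3 genes were highest on TCDD replicate 2, as the choice from the 8 fixed in advance. Control replicate 1 stood well below the other control arrays for each of them.

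Markers of meningeal fibroblasts moved with these values. The list held 7 genes, Aldh1a2 among them, and all 7 were measured, with none at background throughout. Their summed signal, as multiples of the 75th percentile, was 5.39, 12.2, 12.1 and 13.4 in control and 4.30, 27.8, 4.12 and 4.67 in TCDD. TCDD replicate 2 was the highest array here too. The part of meningeal tissue in the Cyp26b1 values was not tested.

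**Figure D4:**
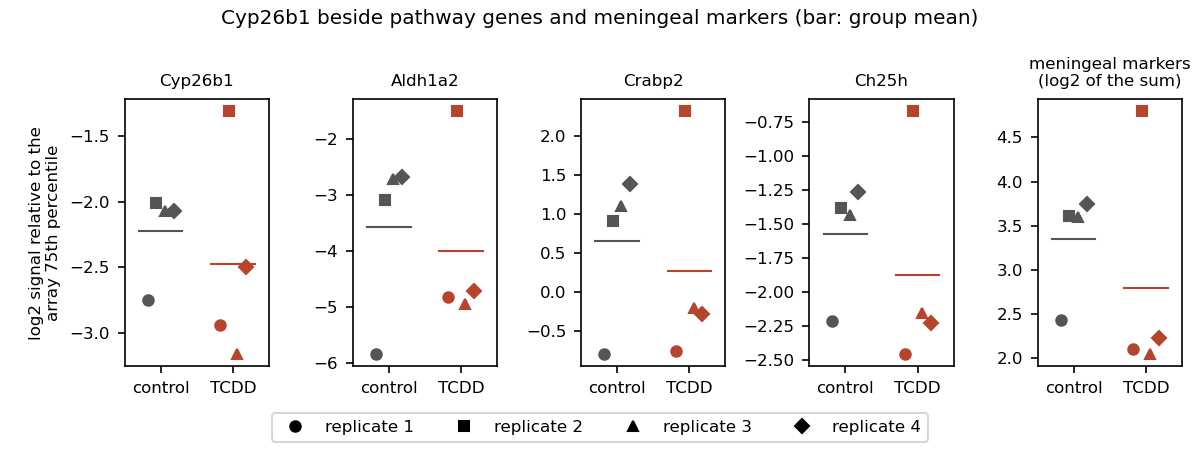
Log2 signal relative to the 75th percentile of the array (vertical axis, scaled separately for each panel) of Cyp26b1, Aldh1a2, Crabp2 and Ch25h, and log2 of the summed signal of 7 meningeal fibroblast markers, in control (grey) and TCDD (red) dams. Symbols give the replicate number and bars the group means, and in all 5 panels TCDD replicate 2 is the highest array. Aldh1a2, Crabp2 and Ch25h were picked from probes highest on that array, and the summed markers include Aldh1a2.

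Among the fatty acid enzymes, 14 of the 18 measured probes had log2 fold changes below 0 and 4 above, with a median of -0.05, and none passed the test at an adjusted or unadjusted p under 0.05. Among the 14, Cyp4b1 and the Cyp2s1 probe A_64_P004603 counted as measured through the control group alone, which favours values below 0. Cyp4f4, an omega-hydroxylase of leukotrienes and arachidonic acid (chr7:13309322-13309381, plus strand, rn4), read -0.99, -0.92, -0.92 and -0.89 in control and -1.29, -0.97, -1.39 and -0.93 in TCDD. TCDD replicates 1 and 3 lay below all control arrays, and TCDD replicates 2 and 4 among them. The log2 fold change was -0.21 (SE 0.11, 95% interval -0.46 to 0.03, limma adjusted p = 0.547).

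The 5 other measured genes of subfamily 4F also lie on chromosome 7 and had smaller differences, while Cyp4f18 and Cyp4f39 were at background throughout. Cyp4f1 read 0.12, 0.16, 0.28 and 0.24 in control and 0.09, 0.18, 0.06 and 0.07 in TCDD, and its difference was -0.10 on the log2 scale (SE 0.06, limma adjusted p = 0.616). The highest TCDD array, replicate 2, lay above control replicates 1 and 2. Cyp4f5, Cyp4f17 and Cyp4f40 had log2 fold changes of -0.10, -0.06 and -0.01, and Cyp4f6 one of 0.09, with adjusted p-values from 0.707 to 0.984 by limma. Measured 4F genes thus stood at 5 below 0 and 1 above.

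Cyp2s1, a P450 that several reports list as inducible by dioxin in other tissues, was measured by 3 probes, and none was higher in TCDD. The probe A_43_P14592 (chr1:81008468-81008527, minus strand, rn4) read -0.99, -1.11, -1.23 and -1.37 in control and -1.10, -1.23, -1.72 and -1.52 in TCDD, a difference of -0.22 on the log2 scale (SE 0.14, 95% interval -0.55 to 0.11, limma adjusted p = 0.658). TCDD replicates 3 and 4 were the lowest arrays, and TCDD replicates 1 and 2 lay within the control range. The second probe, A_64_P113278, had a log2 fold change of -0.02 and overlapping groups, and ran from -0.085 to 0.031 with 1 array left out. The last, A_64_P004603, was well above background on 4 control arrays but only 2 TCDD arrays, with -4.96, -5.35, -4.79 and -5.25 against -5.19, -5.50, -6.04 and -5.15. It counted as measured through the control group alone, which favours a value below 0, so its direction is no separate support. Its log2 fold change was -0.38 (SE 0.21, limma adjusted p = 0.591), and -0.14 with another background correction (normexp).

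Cyp4b1, which turns plant furans such as ipomeanol into toxic products, was the other gene well above background on 4 control arrays and only 2 TCDD arrays. It read -3.83, -5.41, -4.75 and -5.16 in control and -5.46, -4.71, -5.19 and -6.78 in TCDD. Control replicate 1 was the highest and TCDD replicate 4 the lowest, and the arrays between them were mixed. This gave a log2 fold change of -0.75 (SE 0.48, 95% interval -1.85 to 0.36, limma adjusted p = 0.649), -0.33 without control replicate 1 and -0.20 with normexp.

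Of the epoxygenase subfamily 2J, Cyp2j3 and Cyp2j4 were measured, each by 2 probes that disagreed in sign, while Cyp2j10 was above background on some arrays only and Cyp2j16 on none. For Cyp2j3 the log2 fold changes were 0.03 (SE 0.09) and -0.03 (SE 0.08), and for Cyp2j4 they were -0.08 (SE 0.14) and 0.13 (SE 0.20), all within their errors. The Cyp2j4 probe with the positive value, A_64_P056415, read -2.22, -1.84, -1.91 and -1.75 in control and -2.06, -1.26, -2.15 and -1.73 in TCDD. TCDD replicate 2 was its highest array, and without that array the log2 fold change was -0.05.

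Cyp4x1, an enzyme abundant in brain that oxidises anandamide, differed by -0.10 on the log2 scale (SE 0.13, limma adjusted p = 0.836). Cyp4v3, the rat relative of the fatty acid hydroxylase altered in Bietti crystalline dystrophy, was measured by 1 of its 2 probes, at -4.30, -3.96, -4.10 and -3.59 in control and -3.96, -3.60, -3.93 and -3.67 in TCDD. Control replicate 4 matched the higher TCDD arrays. Its difference between groups was 0.20 (SE 0.15, limma adjusted p = 0.713), and -0.02 with normexp. Cyp2u1, a fatty acid hydroxylase of brain and thymus, was at -0.02 (SE 0.10, limma adjusted p = 0.967). The measured Cyp4a8 probe stayed between 0.48 and 1.01 on the 8 arrays, with a difference of -0.03 on the log2 scale (SE 0.11, limma adjusted p = 0.955).

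The 8 measured probes of the remaining family 2 and 3 genes had 5 log2 fold changes above 0 and 3 below. The Cyp2d1 and Cyp2d5 probes, which count as 1 measurement, were both among the 5 and both below 0 without control replicate 1. The Cyp2d1, Cyp2d5 and Cyp3a62 probes, all among the 5, counted as measured through the TCDD group alone, which favours values above 0. Cyp2d4, the main brain form of subfamily 2D in rat, had 2 measured probes. The first (chr7:120743218-120743277, minus strand, rn4) read 0.17, -0.12, -0.21 and -0.47 in control and -0.25, -0.42, -0.12 and -0.37 in TCDD. The second (chr7:120741633-120741692, minus strand, rn4) read 0.34, 0.09, 0.18 and 0.26 in control and 0.46, 0.23, 0.26 and 0.20 in TCDD. Their log2 fold changes were -0.13 (SE 0.13) and 0.07 (SE 0.08), opposite in sign and within error, with limma adjusted p-values of 0.778 and 0.815.

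The joint Cyp2d1 and Cyp2d5 signal was at background in 1 dam. The Cyp2d1 probe read -7.04, -2.74, -1.88 and -1.66 in control and -2.57, -1.67, -3.10 and -2.77 in TCDD. The Cyp2d5 probe read -6.48, -2.82, -1.84 and -1.61 in control and -2.63, -1.66, -2.89 and -2.63 in TCDD. On both probes control replicate 1 was not well above background, so its values are those of background, while the other 7 arrays were well above it. Those 7 arrays fell in 2 bands on both probes, with control replicates 3 and 4 and TCDD replicate 2 between -1.88 and -1.61, and the other 4 arrays between -3.10 and -2.57.

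The log2 fold change was 0.80 (SE 1.11) for the Cyp2d1 probe and 0.73 (SE 0.99) for the Cyp2d5 probe, with limma adjusted p-values of 0.850 and 0.847. Both signs turned without control replicate 1, to -0.43 and -0.36, and with normexp the values were 0.09 and 0.08. Cyp2d2 and Cyp2d3 were at background on all 8 arrays, and the Cyp2d4 probes, which share no stretch of 16 bases with these, showed no array apart from the rest. The signal on 2 probes of nearly 1 sequence counts as 1 measurement.

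Cyp2c11, the male-typical steroid hydroxylase of rat liver, was well above background on all 8 arrays and differed by -0.30 on the log2 scale (SE 0.20, limma adjusted p = 0.654). Cyp2t1 stood at 0.14 (SE 0.10, limma adjusted p = 0.694), with TCDD replicates 1 and 2 above all control arrays. Cyp3a9, a steroid-metabolising 3A enzyme, was at 0.00 (SE 0.09, limma adjusted p = 0.999). Cyp3a62 cleared background on 3 control arrays and 4 TCDD arrays, at -6.15, -5.43, -5.15 and -5.07 against -4.60, -5.10, -5.54 and -5.34. Its dim array was control replicate 1, and its log2 fold change was 0.31 (SE 0.28, limma adjusted p = 0.752). Cyp20a1, a P450 without an established substrate, was at -0.07 (SE 0.09, limma adjusted p = 0.843).

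The partners of the P450 enzymes did not pass the test either. All 12 genes of the list of electron donors and helpers were measured, by 17 probes, with 6 log2 fold changes above 0 and 11 below. Of these probes, 0 passed the adjusted threshold. At an unadjusted limma p under 0.05, 1 was lower, as were 3.92% of all tested probes. Por, the electron donor of the microsomal enzymes, was at -0.07 (limma adjusted p = 0.765). The probe with the low unadjusted p was Cyb5a, cytochrome b5, which read 1.69, 1.71, 1.66 and 1.73 in control and 1.55, 1.63, 1.62 and 1.50 in TCDD. All 4 TCDD arrays lay below all 4 control arrays for Cyb5a, with a log2 fold change of -0.12 (limma adjusted p = 0.436). The groups did not overlap for 7.08% of all tested probes.

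Haem is the cofactor of every P450, and all 12 genes of the list of haem synthesis and breakdown were measured, by 13 probes. The 8 synthesis probes had 1 log2 fold change above 0 and 7 below, and the 5 probes of the 4 breakdown genes had 2 above and 3 below. None passed the adjusted threshold and 1, Uros, was lower at an unadjusted limma p under 0.05, as were 3.92% of all tested probes. Uros, a synthesis enzyme, read -2.80, -2.73, -2.68 and -2.72 in control and -3.09, -3.00, -2.78 and -2.94 in TCDD, with a log2 fold change of -0.22 (limma adjusted p = 0.338). TCDD replicate 3 lay within the control range of Uros and the other TCDD arrays below it. Alas1, the first and rate-limiting enzyme of the pathway, was at -0.06 (limma adjusted p = 0.823). Haem genes are also active in red cells, and the summed red blood cell markers, 5 of 5 genes measured, ran from 211 to 620 times the 75th percentile in control and from 386 to 738 in TCDD. All 9 red cell probes had log2 fold changes above 0, with a median of 1.07. Of these, 7 were higher at an unadjusted limma p under 0.05, as were 6.85% of all tested probes, and 0 passed the adjusted threshold. The part of red cells in the haem values was not tested.

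Of the receptors and partners that set P450 transcription, 13 of the 21 genes on the array were measured, by 14 probes with 8 log2 fold changes above 0 and 6 below. None passed the adjusted threshold. Ppard, a fatty acid receptor, was higher at an unadjusted limma p under 0.05 on 1 probe, at 0.26 (limma adjusted p = 0.453), which turned to -0.08 with normexp, and at -0.16 (limma adjusted p = 0.637) on its other probe. At that unadjusted p, 6.85% of all tested probes were higher in TCDD. The probes named Ahr and Arnt were not measured. The constitutive androstane receptor Nr1i3, which drives the 2b enzymes in liver, was measured on 1 of 2 probes, at -0.37 (limma adjusted p = 0.698), and the pregnane receptor Nr1i2 was not measured.

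The other enzymes and carriers of the same pathways had 15 of 19 genes measured, by 16 probes with 5 log2 fold changes above 0 and 11 below, and none passed at an adjusted or unadjusted p under 0.05. Cyp51, the lanosterol demethylase of cholesterol synthesis, whose array name has no subfamily letter, was at 0.01 (limma adjusted p = 0.991). Ephx2, the hydrolase that clears the epoxides made by 2J enzymes, was at -0.09 (limma adjusted p = 0.592).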

How the data were processed

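The scanner files deposited by the authors hold linear spot intensities. Per the file headers, the software was Agilent Feature Extraction 10.7.1.1, it subtracted the background, and it put a surrogate value where a spot was not above it. Coordinates come from the same headers (rn4). The authors' deposited value table, also linear intensities, has a median of 65.1 in every column and its log2 values correlated with those of the scanner files across probes (r at least 0.999). It served as an alternative, and the sources used here do not state its centring.

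Log2 of the processed signal minus the array's 75th percentile over 30367 non-control probes was used, with outlier spots left out and spots of a probe averaged. That percentile was 474 to 699 intensity units. The number of arrays limits the precision. Groups were compared with limma 3.58.1 (lmFit and eBayes, group only, 2-sided) in R 4.3.3, with Benjamini-Hochberg adjustment over the 19099 measured probes. The same fit was also run on simulated data, without a slide difference, and its result is not given here. Alternatives concerned background correction, scaling, filter, probes per gene, variance model, array weights, a replicate block and each array left out. P450 genes given with values had an unadjusted p under 0.05, groups that did not overlap, a signal above background on all arrays of 1 group only, probes of opposite sign, or a place in a list of brain P450 enzymes. Other measured P450 genes, and Aldh1a2, Crabp2, Ch25h, Aldh1a1 and Crabp1, were given after their values were seen. Members and lists were chosen with earlier results of these data known. Accessions matched 74 of the 90 P450 probes to RefSeq, and 69 of 73 gene names are current symbols. Names are those of the array. Same-numbered arrays of the groups also had the same position on their slides. Their deviations from the group means correlated at 0.197, 0.0138, -0.0688 and 0.111. Pairs with unlike numbers ran from -0.329 to 0.328, and the main fit did not pair arrays. The part of slide position in the values was not tested.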

Additional observations from a re-analysis of the deposited data

Results flagged for a closer look

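In the 33 measured P450 probes, 66 groups of 4 arrays were examined for a single array far from the other 3, by the gap to its nearest neighbour over the range of the group. Chance gives about 1 in 20 such groups, and 6 of the 66 stood out. Control replicate 1 was the lowest for Cyp26b1, at -2.75 with the next control array at -2.07, and for Cyp27b1, at -4.94 with the next at -4.50. Control replicate 4 was the highest for Cyp27a1, at -2.80 with the next at -3.65, and the lowest for Cyp46a1, at -0.088 with the next at 0.07. Control replicate 3 was the highest for the Cyp2j3 probe A_64_P164962, at -1.56 with the next at -1.77. TCDD replicate 2 was the highest for Cyp7b1, at 0.33 with the next at 0.12.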

How the results depend on the processing

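Under 19 alternatives, 8 of which left out 1 array, the number of P450 probes at an adjusted limma p under 0.05 was 0 each time, with a smallest adjusted p between 0.292 and 0.782. At an unadjusted p under 0.05 the count of 0 became 1 with median scaling (Cyp4f4), 1 without a filter (Cyp2b2, at background on all arrays), 3 with array weights (Cyp4f4, Cyp27b1 and 1 Cyp2s1 probe), and 0 to 3 with 1 array left out. It was 3 without TCDD replicate 2 (Cyp4f4, Cyp26b1 and Cyp4f5), 2 without control replicate 4 or TCDD replicate 4, and 1 without control replicate 1, control replicate 3 or TCDD replicate 3. With the replicate number as a block, 1 P450 probe (Cyp2s1, -0.22) passed an unadjusted p and 0 of all probes an adjusted p. Over all tested probes, those at an unadjusted p under 0.05 numbered 2057 (10.8%) in the main fit, 1992 with median scaling and 2617 with array weights. They numbered 2254 of 30367 without a filter, 2364 with the replicate block, and 1530 to 2364 with 1 array left out.

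Over all probes the 3 calls became 20 with normexp, 34 with trend and robust variances, 76 with array weights, 0 without a filter, and 0 to 7 with 1 array left out. They fell to 0 without any one of control replicates 1, 2 and 4 and TCDD replicates 2, 3 and 4, and rose to 7 without control replicate 3. All probes at an unadjusted p under 0.05 went from 2057 to 1252 with normexp. Measured P450 probes numbered 28 when all 8 arrays had to pass, 42 when 1 sufficed, 43 with the scanner's weaker flag, and 33 to 34 with 1 array left out.

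Of 353 P450 fold changes in alternatives that leave out no array, 346 kept their sign. The 7 that turned were Cyp2d4 (-0.033), Cyp2j3 (0.0029) and Cyp2j4 (0.026) with probes of a gene averaged, Cyp2u1 with array weights (0.0027), and Cyp2j3 (-0.012), Cyp4v3 (-0.022) and Cyp21a1 (-0.0037) with normexp. With 1 array left out, 28 of 264 turned, over 14 probes. Their ranges were -0.43 to 1.36 for Cyp2d1, -0.36 to 1.26 for Cyp2d5, -0.068 to 0.045 for Cyp3a9, -0.047 to 0.082 for Cyp2j3 (A_64_P164961) and -0.069 to 0.032 for Cyp2j3 (A_64_P164962). They were -0.18 to 0.0091 for Cyp2j4 (A_64_P048379), -0.051 to 0.25 for Cyp2j4 (A_64_P056415), -0.085 to 0.031 for Cyp2s1 (A_64_P113278), -0.079 to 0.050 for Cyp2u1 and -0.13 to 0.043 for Cyp4a8. For the rest they were -0.12 to 0.062 for Cyp4f40, -0.14 to 0.011 for Cyp20a1, -0.36 to 0.041 for Cyp27a1 and -0.12 to 0.013 for Cyp7b1. The cause was not tested. Log2 fold changes below 0 numbered 18 to 26 of 33 over the settings that kept all 33 probes. With normexp, which here added an offset of 50 to every signal, the Cyp2c11 difference went from -0.30 to -0.10 and that of Cyp3a62 from 0.31 to 0.03.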
